A study of Homo sapiens with 16 samples.

Results

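Broad peaks of open chromatin were examined in the breast adenocarcinoma cell line MDA-MB-231, an established human line. The members were chosen by width alone: every listed peak of at least 3000 bp on chromosomes 1 to 22 in any of 4 peak lists. They number 24842 of the 469733 listed peaks on these chromosomes, and of 477967 listed peaks in all. ATAC-seq, the assay used, inserts sequencing adapters where DNA is open, and a peak is a stretch with more insertions than the background. The 16 wild-type samples formed 4 groups of 4: ancestral cells on soft gel (1 kPa), ancestral cells on stiff gel (308 kPa), cells labelled selected on soft, and cells labelled selected on stiff. All 4 groups grew on polyacrylamide gel carrying type I collagen. Selection ran for 75 days with 20000 cells carried over at about weekly passages, always to gel of the same stiffness. The labels do not say whether the cells selected on stiff had been selected on stiff gel, or had been selected on soft gel and then moved. The group is therefore called by its label throughout.

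Each group has 1 deposited peak list, so no value below has a replicate and no difference between groups was tested. Intervals are exact Clopper-Pearson 95% intervals of a share and cover counting error only. Peaks carry numbers in order of position, and about 1.00% of the numbers are skipped in each list. Every stretch between neighbouring peaks that holds a skipped number is longer than the widest peak of that list: the shortest measure 6392, 6699, 9099 and 8607 bp against widest peaks of 5650, 5946, 8443 and 7950 bp (ancestral soft, ancestral stiff, selected soft, selected stiff, the order used throughout). Whether a peak lies at a skipped number cannot be told from the lists. A broad peak at such a stretch of another list is therefore kept apart from one that is narrow or missing there.

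Most ATAC-seq peaks mark single promoters or enhancers and are narrow. Broad ones are known from promoters rich in CG dinucleotides and from places where several regulatory elements lie side by side. Promoters of transcription factor, histone and cytoskeletal genes that cells switch on quickly are often open over long stretches.

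To show what DNA lies under broad peaks, the 200 bases before the start site of 5 genes are printed 5′ to 3′ on the gene's own strand, from RefSeq on GRCh38.p14. The start sites of CASTOR1, NEK8, S100A6 and TUBA1C lay in a peak that was broad in all 4 lists, and that of ZDHHC8 in a peak of 5451 bp in ancestral cells on stiff gel that met 1237 bp on soft gel and 2592 and 4359 bp in the selected lists. Capitals mark matches, on either strand, to the GC box GGGCGG, the CCAAT box and the ETS core CCGGAA. CASTOR1 encodes an arginine sensor of the mTORC1 pathway (chr22:30289506-30289705, minus strand). NEK8 encodes a kinase of the primary cilium (chr17:28728588-28728787, plus strand). S100A6 encodes a small calcium-binding protein (chr1:153535992-153536191, minus strand). TUBA1C encodes an alpha-tubulin (chr12:49264882-49265081, plus strand). ZDHHC8 encodes an enzyme that adds palmitate to proteins (chr22:20131604-20131803, plus strand).
CASTOR1: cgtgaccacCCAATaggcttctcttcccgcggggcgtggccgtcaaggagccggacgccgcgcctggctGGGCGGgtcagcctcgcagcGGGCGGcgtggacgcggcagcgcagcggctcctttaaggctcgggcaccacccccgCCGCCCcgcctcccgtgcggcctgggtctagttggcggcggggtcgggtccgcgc
NEK8: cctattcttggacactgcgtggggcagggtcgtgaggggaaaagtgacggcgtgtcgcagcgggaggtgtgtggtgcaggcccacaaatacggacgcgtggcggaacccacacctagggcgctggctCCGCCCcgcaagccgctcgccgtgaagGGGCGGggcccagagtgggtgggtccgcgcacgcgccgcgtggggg
S100A6: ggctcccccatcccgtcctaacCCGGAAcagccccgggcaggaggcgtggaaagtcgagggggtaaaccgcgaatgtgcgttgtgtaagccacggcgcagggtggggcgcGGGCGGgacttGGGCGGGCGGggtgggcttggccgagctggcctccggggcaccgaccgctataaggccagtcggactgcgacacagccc
TUBA1C: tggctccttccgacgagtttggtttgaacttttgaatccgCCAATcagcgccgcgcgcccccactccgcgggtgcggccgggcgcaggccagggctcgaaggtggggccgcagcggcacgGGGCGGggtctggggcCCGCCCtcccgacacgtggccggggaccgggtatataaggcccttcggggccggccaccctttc
ZDHHC8: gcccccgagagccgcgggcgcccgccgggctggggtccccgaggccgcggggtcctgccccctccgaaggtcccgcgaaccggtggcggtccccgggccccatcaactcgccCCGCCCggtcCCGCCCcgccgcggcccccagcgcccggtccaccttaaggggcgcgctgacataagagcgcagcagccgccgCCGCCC
These 5 windows hold 29, 23, 21, 24 and 30 CG dinucleotides in the order printed, and each has at least 2 GC boxes.

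Over the 21155 start sites of 15100 autosomal protein-coding genes in the promoter table, 952 start sites of 714 genes lay in a broad peak in all 4 lists. Their 300 bases (250 before to 50 after the start) held a median of 28 CG dinucleotides, against 21 over all start sites, 25 where the start lay in a peak under 3000 bp in all 4 lists, and 5 where no list had a peak. A GC box was present in 76.9% of the windows broad in all 4 lists, 56.6% of all windows and 69.2% of those in narrower peaks of all 4 lists. The ETS core was in 23.1% of windows broad in all 4 lists, 21.3% of all windows and 32.6% of those in narrower peaks of all 4 lists. The 488 start sites broad in both selected lists only had a median of 23 CG dinucleotides, and the 356 broad in both ancestral lists only had 28. The AP-1 sequence TGANTCA was in 5.99% of windows broad in all 4 lists, 5.74% broad in both selected lists only and 6.08% of all windows. The TEAD sequence GGAATG stood at 12.1%, 11.9% and 12.2% of the same sets. These are matches of letters and do not show that a factor was bound.

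The lists of selected cells held more broad peaks. There were 4326 broad peaks in ancestral cells on soft gel, 5367 on stiff gel, 8141 in cells selected on soft and 7008 in cells selected on stiff. As shares of all listed peaks these were 4.03% (3.92 to 4.15), 4.73% (4.61 to 4.86), 6.35% (6.22 to 6.49) and 5.80% (5.67 to 5.93). They covered 16.7, 21.0, 36.2 and 30.6 Mb, which is 14.5%, 16.6%, 23.8% and 22.2% of the bases in listed peaks. Since the lists reach different widths, the count was repeated between 3000 and 5650 bp, the range that all 4 lists cover, and gave 4326, 5214, 6640 and 5846 peaks. Their shares of all listed peaks were 4.03%, 4.60%, 5.18% and 4.84%. On stiff gel the ancestral and selected shares thus lay closer together than over all widths. Selected soft remained highest, and the remaining 1501 and 1162 broad peaks of the selected lists were wider than any listed in ancestral cells on soft gel. The ancestral list on stiff gel had 153 beyond that width. These counts cover listed peaks only. The full lists skip 1107, 1173, 1311 and 1240 numbers, where still wider peaks may be missing. At the threshold itself, the narrowest broad peaks of ancestral cells on soft gel lay at KIF18B and LGALS3BP with 3000 bp, and a peak at STK38 with 2999 bp fell just outside. In the selected lists, peaks of 3000 bp lay at SOX13 (soft) and NFKBIA (stiff), and peaks of 2999 bp at RNASET2 (soft) and TUBA4A (stiff).

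**Figure D1:**
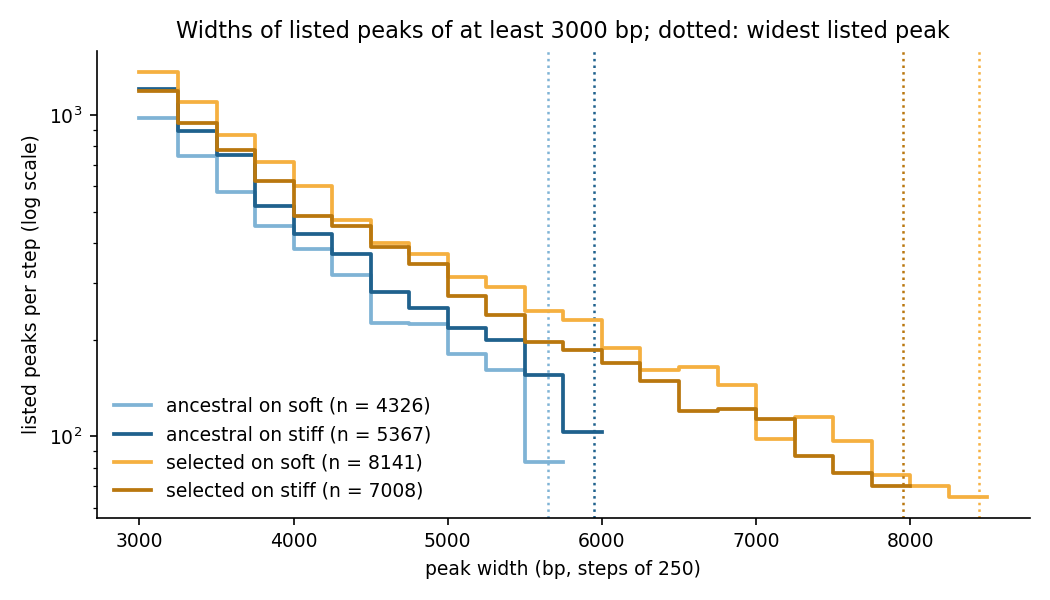
Number of listed broad peaks (log scale) in steps of 250 bp of width for each list, with the widest listed peak of each list as a dotted line. Both selected lists run above the ancestral list on soft gel at each width, and continue to 8443 and 7950 bp, past the ends of the ancestral lists at 5650 and 5946 bp. Wider peaks may be missing from each list at its skipped numbers.

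Within each list broad peaks were the stronger ones. The authors' fold enrichment, the pileup at the summit over a background fixed for each list, had a median of 29.9 in broad peaks and 6.18 in narrower ones in ancestral cells on soft gel, and 41.0 and 5.89 on stiff gel. In cells selected on soft the medians were 9.19 and 3.45, and in cells selected on stiff 13.6 and 3.97. Peaks of 2000 to 2999 bp had medians of 32.5, 39.1, 9.19 and 14.8, near those of broad peaks. The background was 16.3, 20.2, 13.5 and 12.6 in units of the pileup, and the median pileup of broad peaks 516, 870, 132 and 183.5. Background, pileup and enrichment were lower in both selected lists, where the counts of broad peaks were higher, and their part in the counts was not tested. Enrichment is therefore read only within a list from here on.

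The widest listed peaks of each list lay at different genes. Still wider peaks may be missing, since every stretch with a skipped number is longer than the widest listed peak. In cells selected on soft the widest, 8443 bp at 150-fold enrichment, covered JUN (chr1:58777919-58786361), which encodes a subunit of the AP-1 transcription factor, and the neighbouring noncoding gene JUN-DT. The list for selected on stiff had 7518 bp there, and both ancestral lists had no listed peak but a skipped number. Another of the 5 widest in that list, 8438 bp, spanned KDM6B, which encodes a histone H3 lysine 27 demethylase, together with TMEM88, NAA38 and CYB5D1. The widest ancestral peak under it measured 3380 bp on soft gel and 3388 bp on stiff gel, and the list for selected on stiff had a skipped number there. In cells selected on stiff, 2 of the 5 widest peaks, 7950 and 7947 bp, lay inside TP73, a p53 family gene, where ancestral cells on soft gel had at most 808 and 1209 bp, ancestral cells on stiff gel 2529 and 4074 bp, and cells selected on soft skipped numbers. Peaks at MUC5AC, a secreted mucin gene, and KCNQ1, a potassium channel gene, both measured 7934 bp in that list. The widest peaks of ancestral cells on soft gel, 5640 to 5650 bp, lay at PHLDB1, NUP188, SSBP4, RNF168 and ITPR3. On stiff gel they lay near RASA4, RIPOR1, EHD2, FSCN2 and FOXO3, at 5939 to 5946 bp. Of these 10 ancestral peaks, those at RNF168, EHD2 and FOXO3 were broad in all 4 lists. The peak near RASA4, at 4.15-fold, was the weakest of the 5 on stiff gel.

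Whether a broad peak of 1 group was broad, narrow or at a skipped number in another depended on the direction of the comparison. Of the 4326 broad peaks of ancestral cells on soft gel, 2500 (57.8%, 56.3 to 59.3) were also broad in cells selected on soft, 1139 (26.3%) met only narrower peaks, 657 (15.2%) lay at a skipped number only, 21 were narrower beside a skipped number and 9 had neither. Read the other way, of the 8141 broad peaks in cells selected on soft, 2499 (30.7%, 29.7 to 31.7) were broad in ancestral cells on soft gel, 4537 (55.7%) were narrower, 479 (5.88%) lay at a skipped number only, 151 were narrower beside one and 475 (5.83%, 5.34 to 6.37) had neither. On stiff gel, 3161 of 5367 ancestral broad peaks (58.9%) were broad in the selected list, and 3158 of 7008 selected ones (45.1%) in the ancestral list. The shared counts were thus nearly equal read either way, and these shares differ with the number of broad peaks in each list. The 475 peaks with no ancestral counterpart had a median enrichment of 3.6 against 22.4 for the 2499 shared ones of the same list, and 74.7% had their summit inside a gene. The direction was less marked under another width rule. With broad redefined as the widest 1.00% of each list, at thresholds of 4343, 4563, 5874 and 5604 bp, the share narrow or missing was 67.8% for selected soft in ancestral soft and 63.1% for the reverse, against 61.6% and 26.5% at 3000 bp. On stiff gel the same definition gave 56.5% and 55.2%, against 46.9% and 27.7%.

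Between gels, 3174 of the 4326 soft-gel broad peaks of ancestral cells (73.4%) were broad on stiff gel, and 3180 of the 5367 stiff-gel ones (59.3%) were broad on soft gel. In selected cells, 5033 of 8141 broad peaks on soft (61.8%) were broad on stiff, and 5038 of 7008 (71.9%) the other way. At most 3 broad peaks of either selected list had no listed peak and no skipped number in the other. The 706 soft-gel broad peaks of ancestral cells that were narrower on stiff gel often lay far from genes: for 61.8% no protein-coding gene was within 100 kb of the summit, against 14.5% of those broad on both gels.

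**Figure D2:**
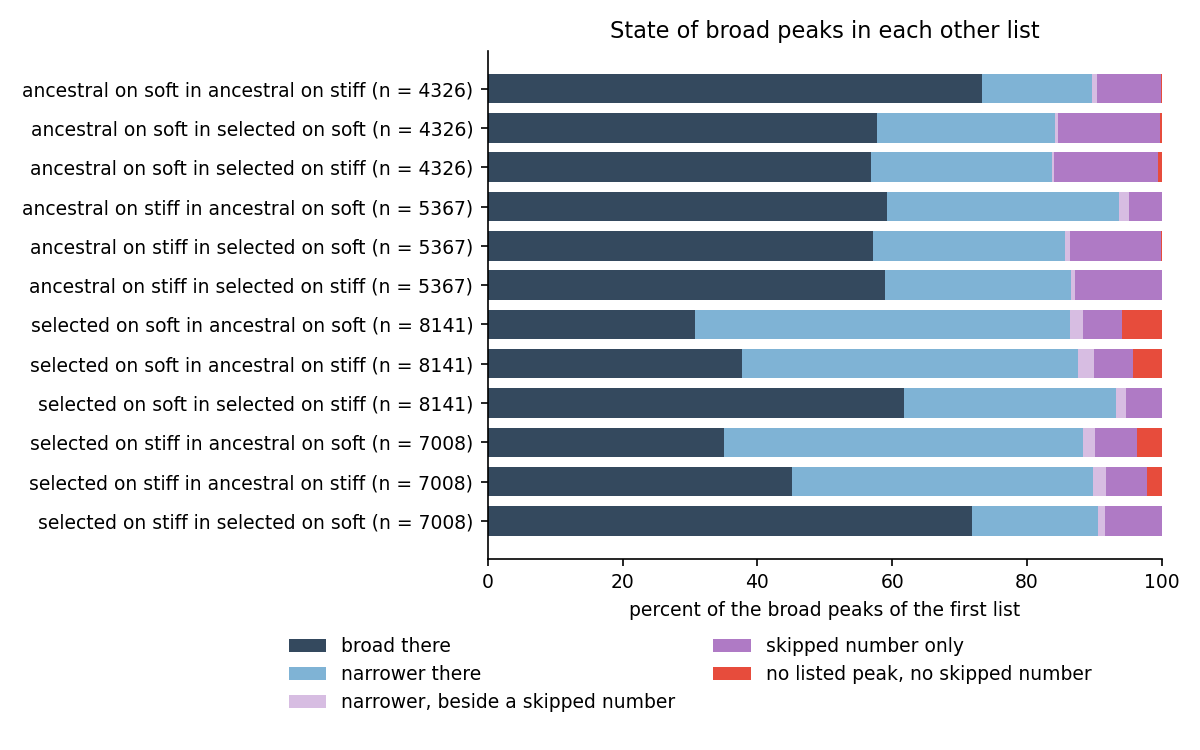
State of the broad peaks of each list in each other list, as stacked percentages of the first list's broad peaks (n in the row labels). The dark part, broad in both lists, ranges from 30.7% for selected soft in ancestral soft to 73.4% for ancestral soft in ancestral stiff, and red parts with no counterpart are visible mainly for selected peaks in ancestral lists.

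Where a broad peak of selected cells was narrow in ancestral cells, the ancestral peaks under it were often much narrower. Among the 4537 selected soft peaks of this kind, the widest ancestral partner had a median width of 1585 bp, 27.0% of partners were under 1000 bp, and the listed ancestral peaks covered a median of 49.9% of the broad peak. A lone partner was found for 47.0%, 2 for 38.1% and 3 or more for 14.9%. The reverse set, 1139 ancestral soft peaks, had partners with a median width of 2106 bp that covered 76.3%. On stiff gel the medians were 1835 bp for selected peaks and 2267 bp for ancestral ones. At UBTF, which encodes a transcription factor of ribosomal RNA genes, 1 peak of 5740 bp in ancestral cells on stiff gel met 4 smaller peaks on soft gel, the widest 1520 bp, and was 5868 and 7870 bp in the selected lists.

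Leaving aside skipped numbers, the 5 largest width excesses of cells selected on soft over ancestral cells on soft gel were at peaks with enrichment below the list's broad median of 9.19. They lay in ABR (8281 bp, 4.01-fold), FBRSL1 (8171 bp, 4.90-fold), CHLSN (8045 bp, 4.49-fold) and MORN1 (8400 bp, 5.32-fold), and in the noncoding gene LINC00673 (7912 bp, 4.21-fold). The first 3 and LINC00673 had no ancestral soft peak at all, and MORN1 had 413 bp. On stiff gel the largest excesses of selected over ancestral cells included FBRSL1 again (7797 bp against 428 bp), IQSEC1 (7860 against 921 bp) and a peak near C1QTNF8 (7805 against 1067 bp). In the opposite direction, GPRC5A, an orphan receptor gene, measured 5180 bp in ancestral cells on stiff gel and 834 bp in cells selected on stiff, NUMA1, a spindle protein gene, 5127 and 906 bp, and SEC14L1 5858 and 1877 bp. These were also narrow in cells selected on soft, at 795, 981 and 1655 bp. The 5 largest excesses of ancestral cells on soft gel over cells selected on soft had no protein-coding gene within 100 kb. Their enrichment was 3.76-fold to 5.32-fold, below that list's broad median of 29.9. They lay at chr7:58888280-58893436, chr7:59617114-59622024, chr7:60089185-60094727, chr9:44888994-44894469 and chr11:52967300-52972246. Those on chromosomes 9 and 11 fell in windows at the centromere that are given further on.

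The 24842 broad peaks merged into 12230 regions. Of these, 1756 (14.4%) were broad in all 4 lists, 2267 in both selected lists only, 693 in both ancestral lists only, and 5051 (41.3%) in 1 list. The regions of 1 list split into 2322 for selected soft, 1182 for selected stiff, 891 for ancestral stiff and 656 for ancestral soft. When regions with a skipped number in another list are set aside, 1927 remain in both selected lists only and 427 in both ancestral lists only. A gene end lay within 1 kb of 49.5% of the regions broad in all 4 lists, 45.0% of those in both ancestral lists only, 35.2% of those in both selected lists only and 23.0% of those in ancestral soft alone.

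**Figure D3:**
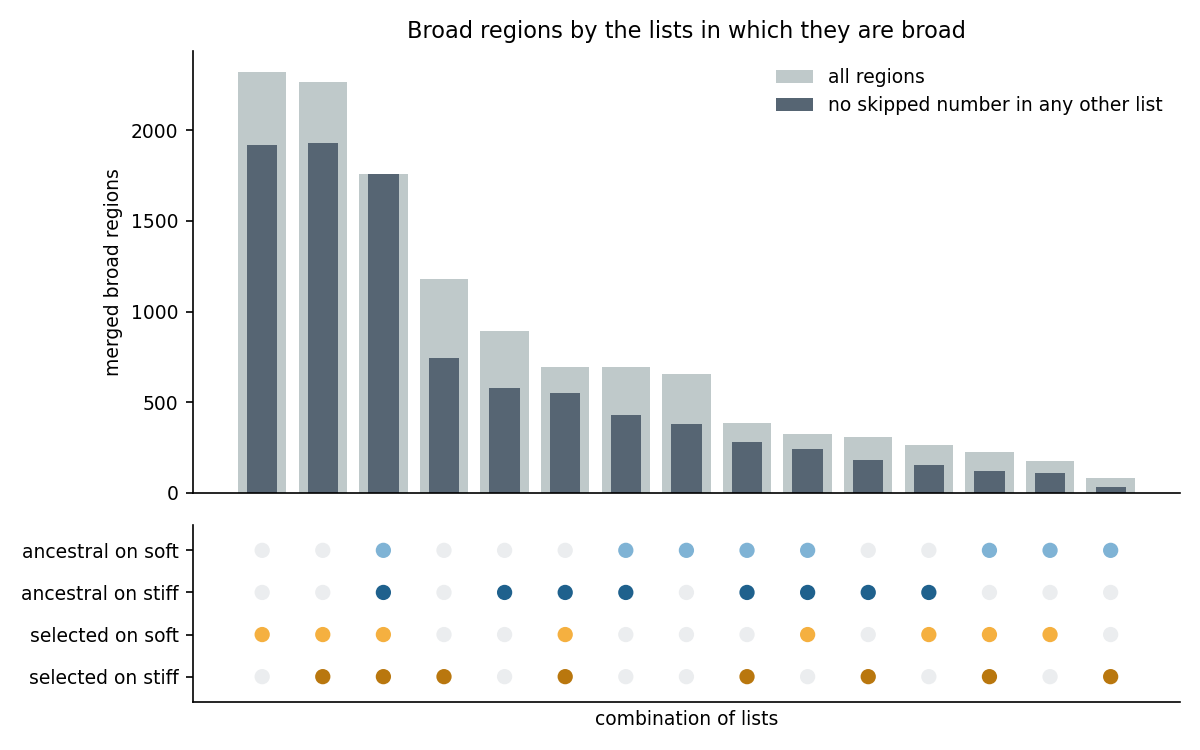
Merged broad regions by the combination of lists in which they are broad (filled dots), with all regions in light bars and those without a skipped number in any other list in dark bars. Regions of selected soft alone (2322) and of both selected lists (2267) outnumber those broad in all 4 lists (1756).

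In the 1756 regions broad in all 4 lists the median width was 3750.5, 3902.5, 4093.5 and 3991.5 bp, and the selected soft peak was wider than the ancestral soft peak in 1105 (62.9%). Between the stiff-gel lists the selected peak was wider in 900 (51.3%). Ancestral peaks were wider on stiff than on soft gel in 1214 regions and narrower in 536. Among the 10 regions with the largest smallest width, CAND2, an exchange factor of cullin ubiquitin ligases, had 5639, 5829, 6048 and 6453 bp (chr3:12827109-12834464). CASTOR1 had 5601, 5805, 6200 and 6983 bp, NEK8 with RPL23A and TLCD1 had 5588, 5659, 5982 and 5803 bp, and TRIM7 had 5611, 5768, 6082 and 5707 bp. S100A6 had 5596, 5568, 5712 and 5582 bp, and TUBA1C had 5480, 5592, 5747 and 5644 bp. The region at CEP72, a centrosomal protein gene, had 5582 and 5899 bp in ancestral and 7987 and 7929 bp in selected lists. The other 3 of the 10 had no protein-coding gene within 100 kb. Among these, the region on chromosome 17 (chr17:26880369-26885979) had 5611, 5611, 5604 and 5604 bp.

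Genes were counted as carrying a broad peak when they were the nearest protein-coding gene to its summit within 100 kb. There were 2624, 3429, 4123 and 3795 such genes of 19122, which is 13.7%, 17.9%, 21.6% and 19.8%. In all, 5590 genes carried a broad peak in at least 1 list and 1619 in all 4. Genes in 1 list alone numbered 102, 389, 657 and 316. Selected and ancestral cells on soft gel shared 1969 genes, 47.8% of the selected and 75.0% of the ancestral genes, and on stiff gel they shared 2453, 64.6% and 71.5%. By the stricter rule of a gene end within 1 kb of any part of a broad peak, 2249, 2968, 3498 and 3258 genes were counted, or 11.8%, 15.5%, 18.3% and 17.0%, with 1135 in all 4.

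Several long genes carried many broad peaks in selected cells. Genes with 3 or more numbered 156, 268, 658 and 553. CDH4, which encodes R-cadherin and spans 688 kb, had 5 and 6 broad peaks in ancestral cells and 33 and 29 in selected cells. SORCS2, a sortilin family receptor gene of 550.3 kb, had 1, 6, 24 and 16. PTPRN2, a receptor phosphatase family gene, had 2, 2, 23 and 11, and COL5A1, which encodes a chain of type V collagen, had 3, 4, 16 and 11. The adrenergic receptor gene ADRA2C, only 2.14 kb long, was nearest to 0, 0, 8 and 6.

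Along the genome, broad peaks were unevenly spread. Their share of listed peaks was higher in cells selected on soft than in ancestral cells on soft gel on each chromosome except 18. Between the stiff-gel lists the selected share was higher except on chromosomes 13, 15 and 18. Chromosome 19 had the highest share of broad peaks in each list, at 6.16%, 7.17%, 11.4% and 9.76% of its peaks. On it, the first 10 Mb held 80, 112, 254 and 230 broad peaks. The first 10 Mb of chromosome 4, with SORCS2 and ADRA2C, held 47, 73, 186 and 143. In 289 windows of 10 Mb, cells selected on soft had more broad peaks than ancestral cells on soft gel in 166 and fewer in 89, while cells selected on stiff had more than ancestral cells on stiff gel in 115 and fewer in 148. The largest deficit of selected cells on soft gel was at 50 to 60 Mb of chromosome 11, which spans the centromere, with 119, 75, 52 and 39 broad peaks, of which 114, 65, 46 and 35 had no protein-coding gene within 100 kb. At 40 to 50 Mb of chromosome 9, also at the centromere, the counts were 68, 26, 25 and 15.

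Gene ends carried a larger part of broad than of narrow peaks. Any part of a broad peak lay within 1 kb of an annotated end of a protein-coding gene for 42.0% (1816), 45.5% (2441), 37.8% (3075) and 40.3% (2826). Over all listed peaks the share was 15.2%, 14.7%, 15.0% and 15.3%, and over peaks under 3000 bp it was 14.1%, 13.2%, 13.4% and 13.8%. Since a wider peak reaches an end more easily, the share was also read per width. It was 6.55%, 5.85%, 7.49% and 7.07% under 1000 bp, 40.9%, 41.8%, 32.2% and 35.8% from 2000 to 2999 bp, and 42.3%, 47.3%, 40.9% and 43.6% at 4000 bp and over. Per 1000 kb of peak, 108 broad peaks and 170 peaks of 2000 to 2999 bp lay at an end in ancestral soft, 116 and 173 in ancestral stiff, 85.0 and 134 in selected soft and 92.2 and 149 in selected stiff. With the summit in place of any part, 29.0%, 32.3%, 22.7% and 25.2% of broad peaks lay at an end. That is above the 12.0%, 11.2%, 11.1% and 11.6% of all peaks under 3000 bp. It is below the 34.8%, 35.7%, 25.4% and 29.3% of peaks of 2000 to 2999 bp. A start site of the promoter table was inside 30.1%, 31.8%, 21.3% and 23.7% of broad peaks, and inside 31.7%, 32.3%, 21.9% and 25.6% of peaks of 2000 to 2999 bp.

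**Figure D4:**
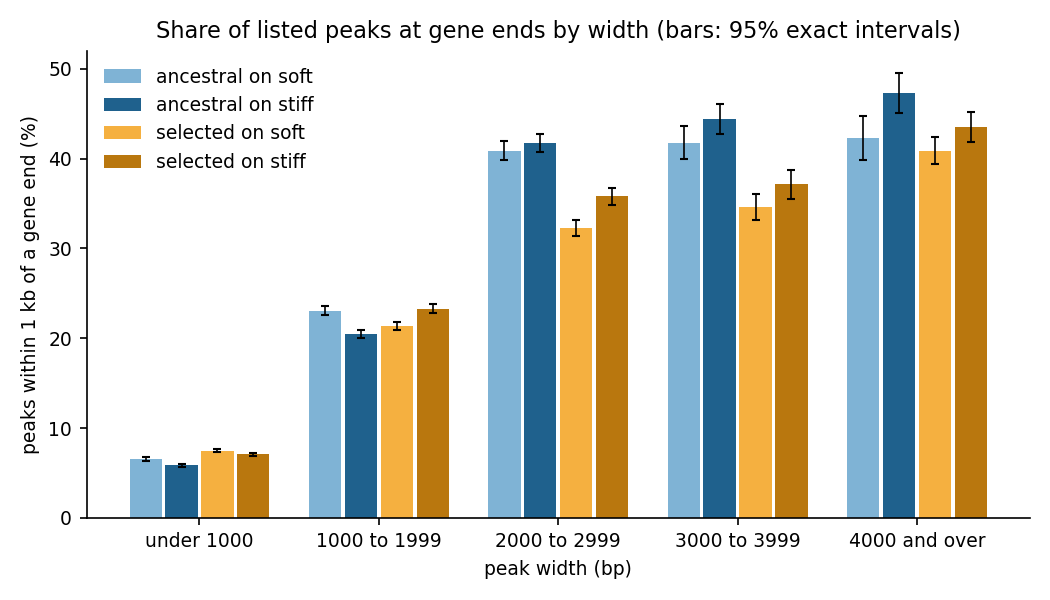
Share of listed peaks with any part within 1 kb of a protein-coding gene end, by peak width and list, with exact 95% intervals as error bars. The share is 5.85% to 7.49% under 1000 bp and 40.9% to 47.3% at 4000 bp and over, and from 2000 to 3999 bp the selected lists (32.2% to 37.2%) sit below the ancestral lists (40.9% to 44.4%).

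Away from gene ends, a larger share of broad peaks lay inside genes in selected lists, and a larger share far from genes in ancestral lists. Those inside a gene and away from its ends made up 23.0%, 27.0%, 35.4% and 35.1%. Counted with those at ends, summits inside a gene made up 42.4%, 48.6%, 55.9% and 56.2% of broad peaks. Over all listed peaks that share was 47.1%, 48.6%, 52.0% and 51.8%. Broad peaks with no protein-coding gene within 100 kb made up 21.5%, 12.6%, 9.54% and 8.18%. Over all listed peaks the share so far from genes was 16.8%, 15.2%, 12.2% and 12.2%, so it was also higher in ancestral lists. Many of the broad peaks far from genes lay in a few windows of 10 Mb. The window of chromosome 11 that spans the centromere, named above, held 114, 65, 46 and 35. At 120 to 130 Mb of chromosome 1 there were 107, 78, 83 and 62. There were 98, 78, 87 and 60 at 40 to 50 Mb of chromosome 5, and 97, 76, 82 and 62 at 20 to 30 Mb of chromosome 19. In each list peaks at gene ends had the higher enrichment: in cells selected on soft the median was 17.0 at ends and 5.87 inside genes, and in ancestral cells on soft gel 49.3 and 30.6. Of the 656 regions broad in ancestral cells on soft gel alone, 340 (51.8%) lay as far from genes, against 123 of the 2322 regions (5.30%) of selected soft alone. Without peaks far from genes, 53.5%, 52.0%, 41.8% and 43.9% of the broad peaks lay at gene ends, an alternative chosen after seeing the data.

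Gene ends were then followed one by one. In ancestral cells on soft gel 2583 ends of protein-coding genes had a broad peak within 1 kb, and 4375 in cells selected on soft. Of the latter, 1596 (36.5%) were broad in ancestral cells, 2072 (47.4%) had a narrower peak, 301 were at a skipped number only, 42 had a narrower peak beside one, and 364 (8.32%) had neither. Over all lists, 1160 ends of 1044 genes were broad in all 4, 1102 ends of 978 genes in both selected lists only, and 425 ends of 400 genes in both ancestral lists only. Skipped numbers in at least 1 of the other lists touched 209 (19.0%) of the ends of both selected lists only, and 178 (41.9%) of those of both ancestral lists only. Without them, 805 and 240 genes remained. At the 893 ends of those 805 genes the median widths were 1375, 1838, 4313 and 4066 bp.

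Gene lists drawn up for this cell type and treatment show which genes these were, in all 619 symbols found on chromosomes 1 to 22. No list was tested, since each group has 1 list and the lists were drawn up with earlier results known. Of the list members, 83 genes had an end that was broad in all 4 lists, 61 in both selected lists only and 20 in both ancestral lists only. Of the 61, 33 lay at a skipped number in an ancestral list, so that for these genes a still wider ancestral peak may be missing from the list. The other 28 had no skipped number there.

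Immediate early and AP-1 genes code for transcription factors and feedback regulators that growth factors and stretch induce within minutes. Of 32, 17, 21, 20 and 19 were the nearest gene of a broad peak (53.1%, 65.6%, 62.5% and 59.4%, beside 13.7%, 17.9%, 21.6% and 19.8% of all genes). By gene end the counts were 7, 10, 14 and 17 (21.9%, 31.2%, 43.8% and 53.1%, beside 11.8%, 15.5%, 18.3% and 17.0% of all genes), so the order of ancestral and selected lists depended on the rule. Skipped numbers touched many of them: 23, 22, 17 and 16 of the 32 had an end there, against 1034, 1321, 1460 and 1498 of all 19122 genes. JUN, DUSP5 and DUSP6 (phosphatases that switch off MAP kinases), MAFF and MYC were listed as broad in both selected lists, with 8443 and 7518, 6055 and 6058, 5245 and 5807, 6487 and 6567, and 6943 and 6569 bp, and were at skipped numbers in both ancestral lists. EGR2, a zinc finger factor, had no skipped number: its peak measured 2656 and 2706 bp in ancestral cells and 5385 and 3460 bp in selected cells. SRF, the serum response factor, was broad at its lower end in 3 lists with 5325, 8026 and 7552 bp, and at a skipped number in ancestral cells on soft gel. FOSL2, an AP-1 subunit, had the opposite order at its upper end, with 3707 and 3663 bp in ancestral and 767 and 810 bp in selected cells. ZFP36L1, BATF3, KLF4 and KLF10 had an end that was broad in all 4 lists, and that of ZFP36L1 measured 3737, 3617, 3743 and 3732 bp.

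YAP/TAZ-TEAD target and Hippo genes respond to matrix stiffness through the co-activators YAP and TAZ. Of 33, 19, 23, 20 and 24 were the nearest gene of a broad peak (57.6%, 69.7%, 60.6% and 72.7%, beside 13.7%, 17.9%, 21.6% and 19.8% of all genes). An end lay at a broad peak for 14, 17, 14 and 21 (42.4%, 51.5%, 42.4% and 63.6%, beside 11.8%, 15.5%, 18.3% and 17.0% of all genes). In this list 11 were broad at an end in all 4 lists, among them TEAD4 with 3159, 3410, 3163 and 3149 bp, AXL, TGFB2 and VGLL4. CCN1, a secreted matrix protein and a standard YAP target, measured 5707 and 5749 bp in selected cells and lay at skipped numbers in ancestral cells. AJUBA, a LIM protein that restrains the Hippo kinases, did likewise with 7640 and 7610 bp. The lower end of TEAD2, a DNA-binding partner of YAP, had 1856 and 1823 bp in ancestral and 6812 and 5892 bp in selected cells, with no skipped number. The other end of TEAD2 was broad in all 4 lists. MYOF, which encodes myoferlin, measured 3170 and 3133 bp in ancestral and 1875 and 1851 bp in selected cells.

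Actin and SRF/MRTF target genes build the contractile cytoskeleton. Of 42, 16, 21, 22 and 21 were the nearest gene of a broad peak (38.1% to 52.4%). By that rule the shares of all genes were 13.7%, 17.9%, 21.6% and 19.8%. An end lay at a broad peak for 15, 19, 22 and 19 (35.7%, 45.2%, 52.4% and 45.2%, beside 11.8%, 15.5%, 18.3% and 17.0% of all genes). TLN1, which encodes talin that links integrins to actin, had 7671 and 7168 bp in selected cells, FLNC (filamin C) 7215 and 7537 bp, MYH9 (the heavy chain of non-muscle myosin IIA) 6092 and 4217 bp at its upper end, and RND3 (a small GTPase) 4071 and 4231 bp. These 4 ends lay at skipped numbers in both ancestral lists. The lower end of MYH9 was broad in ancestral cells on stiff gel, with 5293 bp, and had 981, 857 and 846 bp in the other lists. TPM2, a tropomyosin gene, had no skipped number, with 1759 and 1815 bp in ancestral and 3770 and 3668 bp in selected cells. MYL9 (a myosin light chain) had 4492 and 4299 bp and ACTN4 (an actinin) 5064 and 5154 bp at its upper end in ancestral cells, and these ends were at skipped numbers in both selected lists. The lower end of ACTN4 had skipped numbers in ancestral cells and 6833 and 1545 bp in selected cells. EZR, which encodes ezrin, a linker of membrane and actin, had 3016 and 3036 bp in ancestral cells and no listed peak at that end in selected cells. CNN3, ACTN1 and TAGLN2 were broad in all 4 lists, CNN3 with 4187, 4152, 4438 and 3373 bp.

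**Figure D5:**
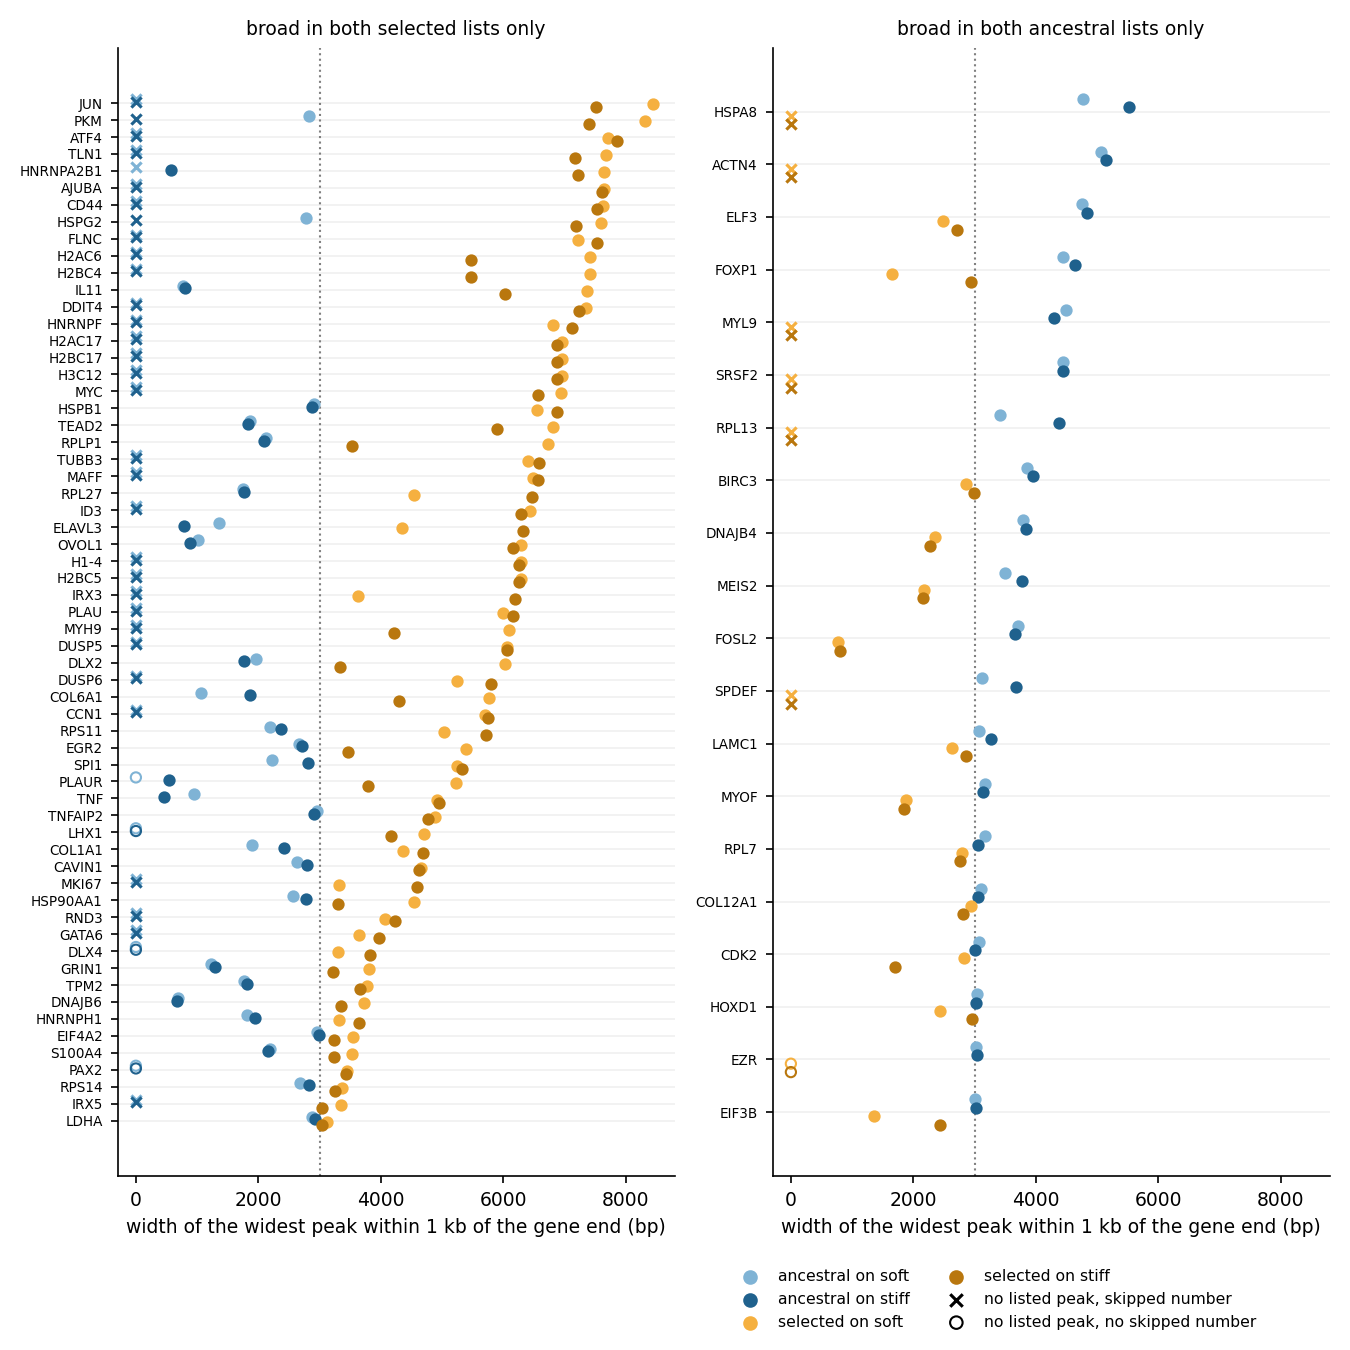
Width in bp of the widest listed peak that reaches a gene end to within 1 kb, for the gene list members whose end is broad in both selected lists only (left) or both ancestral lists only (right), 1 end per gene, with the 3000 bp threshold dotted and colours for the lists. Crosses at 0 mark ends with a skipped number and no listed peak, as for JUN, TLN1 and CD44 in ancestral cells, and points at 0 to 3000 bp are narrower listed peaks, as for IL11 and TEAD2.

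Among extracellular matrix genes, 8, 8, 10 and 8 of 36 had an end at a broad peak (22.2%, 22.2%, 27.8% and 22.2%), among focal adhesion and integrin genes 10, 11, 9 and 9 of 31 (32.3%, 35.5%, 29.0% and 29.0%), and among mesenchymal genes 9, 9, 7 and 11 of 25 (36.0%, 36.0%, 28.0% and 44.0%), beside 11.8%, 15.5%, 18.3% and 17.0% of all genes. As the nearest gene the counts were 10, 14, 15 and 12, then 12, 16, 14 and 13, and then 10, 11, 10 and 13. By that rule the shares of all genes were 13.7%, 17.9%, 21.6% and 19.8%, for these lists and the epithelial list below. COL1A1, which encodes a chain of type I collagen, the protein on the gels, measured 1891 and 2418 bp at its upper end in ancestral and 4358 and 4690 bp in selected cells. COL6A1, a collagen VI gene, had 1060 and 1871 bp against 5773 and 4298 bp, and CAVIN1, a coat protein of caveolae, 2625 and 2798 bp against 4654 and 4625 bp. COL12A1 (3111 and 3054 bp) and LAMC1 (3065 and 3268 bp) were above the threshold in ancestral cells and at 2940 and 2815, and 2635 and 2860 bp in selected cells, close to 3000 bp on either side. CD44, the hyaluronan receptor, had 7622 and 7523 bp in selected cells and skipped numbers in ancestral ones. Of the 25 mesenchymal genes, VIM, the vimentin gene, had 5082, 5148, 5010 and 4801 bp at its lower end, and TGFB1 3983, 3960, 4114 and 5445 bp. Epithelial genes were present too: of 28, 7, 10, 8 and 10 had an end at a broad peak (25.0%, 35.7%, 28.6% and 35.7%), and 10, 12, 11 and 11 were the nearest gene (35.7%, 42.9%, 39.3% and 39.3%). ESRP2, an epithelial splicing regulator, had 4233, 4676, 7601 and 4750 bp, and KRT8, a keratin gene, 5341, 5246, 3268 and 5273 bp at its upper end. ELF3, an epithelial ETS factor, measured 4750 and 4828 bp in ancestral and 2489 and 2705 bp in selected cells.

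Of 32 NF-kB and inflammatory genes, 9, 10, 11 and 11 had an end at a broad peak (28.1%, 31.2%, 34.4% and 34.4%), and of 26 heat shock and unfolded protein genes 8, 8, 10 and 10 (30.8%, 30.8%, 38.5% and 38.5%), beside 11.8%, 15.5%, 18.3% and 17.0% of all genes. As the nearest gene the counts were 10, 11, 12 and 12 (31.2%, 34.4%, 37.5% and 37.5%), and 9, 9, 9 and 10 (34.6%, 34.6%, 34.6% and 38.5%). By that rule the shares of all genes were 13.7%, 17.9%, 21.6% and 19.8%. IL11, a cytokine of the IL-6 family, had 763 and 804 bp at its lower end in ancestral and 7364 and 6027 bp in selected cells. Its upper end had 2665 and 2851 bp against 6480 and 6588 bp, with no skipped number at either end. TNF had 948 and 451 bp in ancestral and 4916 and 4946 bp in selected cells. PLAUR, the urokinase receptor gene, had no listed peak and 542 bp against 5232 and 3794 bp at its lower end. The other end of PLAUR was broad in all 4 lists. PLAU, which encodes urokinase itself, had 6002 and 6153 bp in selected cells and skipped numbers in ancestral cells. BIRC3, an inhibitor of apoptosis, had 3862 and 3950 bp in ancestral and 2867 and 2998 bp in selected cells, the last just under the threshold. HSPB1, a small heat shock protein gene, had 2902 and 2871 bp in ancestral and 6551 and 6878 bp in selected cells. HSPA8, the constitutive HSP70, had 4773 and 5527 bp in ancestral cells at its lower end and skipped numbers in selected ones. In the hypoxia and glycolysis list of 31, 9, 12, 13 and 16 were the nearest gene of a broad peak (29.0%, 38.7%, 41.9% and 51.6%), and 4, 9, 10 and 11 had an end at one (12.9%, 29.0%, 32.3% and 35.5%). PKM, which encodes pyruvate kinase M, had 2832 bp and a skipped number in ancestral cells and 8307 and 7405 bp in selected cells at its upper end. Its lower end had 5834 bp in ancestral cells on stiff gel, 6493 bp in cells selected on soft and skipped numbers in the other lists. DDIT4, an inhibitor of mTORC1, had 7358 and 7238 bp in selected cells and skipped numbers in ancestral cells.

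Replication histone genes, short genes that lie in clusters and are transcribed in S phase, shared peaks. Of 46, 6, 6, 9 and 10 were the nearest gene of a broad peak (13.0%, 13.0%, 19.6% and 21.7%), near the 13.7%, 17.9%, 21.6% and 19.8% of all genes. By gene end the counts were 10, 10, 18 and 18 (21.7%, 21.7%, 39.1% and 39.1%, beside 11.8%, 15.5%, 18.3% and 17.0% of all genes), and 10, 10, 0 and 0 had an end at a skipped number. H2AC17, H2BC17 and H3C12 lay at 1 peak of 6965 and 6884 bp in the selected lists, H2AC6 and H2BC4 at 1 of 7419 and 5467 bp, and H1-4 and H2BC5 at 1 of 6284 and 6264 bp, and all 7 were at skipped numbers in ancestral cells. The pair H2AC11 and H2BC11 shared a peak that was broad in all 4 lists, with 3830, 3853, 3782 and 3787 bp. Ribosomal and translation genes had ends at broad peaks for 17, 19, 24 and 18 of 46 (37.0%, 41.3%, 52.2% and 39.1%) and were the nearest gene for 14, 15, 24 and 18 (30.4%, 32.6%, 52.2% and 39.1%). RPL27, a large subunit protein gene, had 1756 and 1758 bp in ancestral and 4542 and 6465 bp in selected cells. Splicing factor genes had such ends for 12, 17, 15 and 13 of 32 (37.5%, 53.1%, 46.9% and 40.6%), and cell cycle and replication genes for 8, 10, 9 and 11 of 36 (22.2%, 27.8%, 25.0% and 30.6%), beside the same shares of all genes. As the nearest gene the counts were 13, 16, 14 and 12, and 6, 10, 10 and 11. The splicing factor gene SRSF2 had 4450 and 4441 bp in ancestral cells and skipped numbers in selected cells, and HNRNPH1 had 1820 and 1951 bp in ancestral and 3312 and 3649 bp in selected cells.

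Genes of other lineages were examined last. HOX genes, which set position along the body axis, had an end at a broad peak for 1, 1, 1 and 0 of 39, and HOXD1 had 3046, 3023, 2429 and 2953 bp at its lower end. Of 66 other developmental transcription factor genes, 9, 10, 15 and 18 had an end at a broad peak (13.6%, 15.2%, 22.7% and 27.3%, against 11.8%, 15.5%, 18.3% and 17.0% of all genes). The nearest gene was 1 of them for 14, 16, 23 and 23 (21.2%, 24.2%, 34.8% and 34.8%, against 13.7%, 17.9%, 21.6% and 19.8% of all genes). DLX4, LHX1 and PAX2 had no ancestral peak and no skipped number at the end concerned, and measured 3298 and 3820, 4700 and 4158, and 3445 and 3430 bp in selected cells. ID3, an inhibitor of helix-loop-helix factors, had 6435 and 6292 bp with skipped numbers in ancestral cells. FOXP1, a forkhead factor gene, had 4443 and 4637 bp in ancestral and 1658 and 2945 bp in selected cells, and MEIS2, a homeobox gene, 3500 and 3772 against 2181 and 2161 bp. Blood cell markers were the nearest gene of a broad peak for 1, 2, 8 and 4 of 24, and neuron markers for 2, 4, 6 and 6 of 20, beside 13.7%, 17.9%, 21.6% and 19.8% of all genes. By gene end the counts were 0, 2, 3 and 2 for blood and 1, 0, 4 and 4 for neuron markers. SPI1, a myeloid factor, measured 2219 and 2805 bp in ancestral and 5244 and 5327 bp in selected cells, and ELAVL3, a neuronal RNA-binding protein gene, 1350 and 781 against 4343 and 6328 bp. PAX5, a B cell factor, had its widest peak at 3957, 4639, 3860 and 2762 bp. LYL1, a blood cell factor, had 2630, 4446 and 5952 bp at its upper end and a skipped number in cells selected on stiff. Open chromatin at these genes does not show that they were expressed.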

How the data were processed

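The members, gene lists and rules were chosen with earlier results of these data known. MACS2 2.2.7.1, Bowtie2 2.4.5, Trimmomatic 0.36, MultiQC 1.1, FastQC 0.11.4 and the build GRCh38 stand in the submitters' processing notes. Not given in the sources used here is how the 4 samples of a group were combined, or which filters and caller options applied. The authors deposited 1 table per group with, per the file headers, 1-based peak positions, length, the pileup signal at the summit, fold enrichment (a ratio), −log10 q and a numbered name. The deposited fold enrichment is relative to a background fixed for each list, so it was used only within lists. Read totals per sample were not analysed here. All deposited columns mapped to a group.

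Peaks of at least 3000 bp on chromosomes 1 to 22 were kept. A peak of another list was a partner at 1 bp of overlap. Broad peaks were merged on overlap. Genes were 19122 protein-coding genes of a GRCh38.p14 table, and sequences came from RefSeq promoters, matched by symbol for 15100 genes. Motifs were searched on both strands and could overlap: the GC box GGGCGG, the CCAAT box, the ETS core CCGGAA, the AP-1 sequence TGANTCA and the TEAD sequence GGAATG. Start sites from this table, and gene ends followed one by one, were added after seeing the data. Of 624 list symbols, 619 were found. Named genes were the 5 widest peaks per list, the 10 regions broad in all 4 lists with the largest smallest width, the 5 largest width differences per comparison and direction outside skipped stretches, and up to 4 members per gene list with the widest broad peak. Other list members, genes with many broad peaks and windows were picked with their values in view. The alternatives tried were other widths (2500 bp, 4000 bp, the widest 1%, up to 5650 bp), −log10 q of at least 10, 50% overlap, a gap of 500 bp, gene reach of 10 kb, ends within 3 kb or by the summit, and, added later, peaks within 100 kb of a gene. The state steps were tested on a copy of the ancestral soft list with planted changes: 200 of 200 planted states were recovered among 107292 peaks. The state of a narrower peak beside a skipped number was not planted. Some items are not reported here. Work used python 3.11.15, matplotlib 3.10.9, scipy 1.17.1, pandas 2.3.3 and numpy 2.4.6.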

Additional observations from a re-analysis of the deposited data

How the results depend on the processing

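No paired analysis was possible because each group has 1 peak list and its columns carry no replicate. Each list is 1 value, so no replicate could be left out. Read totals were not used here, so what depth limits was not tested. Orders are as in the report. At 2500 bp ancestral cells had 7383 and 8832 broad peaks and 4240 and 5288 genes, the share at gene ends in selected soft was 36.4%, and 3421 regions were broad in all 4 lists and 1073 in both ancestral lists only. At 4000 bp there were 1576, 2001, 4106 and 3471 broad peaks at 1012, 1449, 2424 and 2160 genes, and 432 regions in all 4 lists, 1351 in both selected lists only and 286 in both ancestral lists only. Gene end shares at 4000 bp were 47.3% (ancestral stiff), 40.9% (selected soft) and 43.6% (selected stiff). Selected lists had more broad peaks than ancestral lists on the same gel at each width run.

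The share of broad peaks narrow or missing in the other list is given for selected soft in ancestral soft, its reverse, selected stiff in ancestral stiff, its reverse, ancestral soft in ancestral stiff, its reverse, selected soft in selected stiff and its reverse. At 4000 bp it was 69.9%, 32.4%, 57.3%, 29.4%, 23.7%, 41.4%, 35.7% and 21.95%. For the widest 1% of each list it was 67.8%, 63.1%, 56.5%, 55.2%, 33.7%, 38.8%, 39.4% and 32.0%. In each of the 4 pairs the larger direction was the same as at 3000 bp under both definitions. It was always that of the list with more broad peaks at 3000 bp. Shared broad peaks at 3000 bp were nearly equal in number read either way, so the direction is not given as a separate result. The part of list size in it was not tested. At 2500 bp the values for selected in ancestral cells were 55.6% (soft) and 40.7% (stiff), and the last 4 were 14.2%, 29.7%, 29.4% and 17.3%. Up to 5650 bp selected in ancestral gave 63.6% and 49.2%, and the last 2 were 36.7% and 21.6%. Within 100 kb of a gene the first 6 were 65.7%, 19.0%, 48.9%, 25.0%, 7.98% and 37.6%. With 50% overlap the selected pair gave 32.5% and 19.9%, and with a 500 bp gap selected soft in selected stiff gave 30.3%.

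Gene end shares within 3 kb were 46.9%, 50.7%, 44.9% and 47.5%, by the summit 29.0%, 32.3%, 22.7% and 25.2%, and within 100 kb of a gene 53.5%, 52.0%, 41.8% and 43.9%. Counting list members by gene end in place of the nearest gene moved 18 of 72 counts by over 1.5 times. The cause of these changes, beyond the definitions themselves, was not tested.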
